A study of Rattus norvegicus with 24 samples.

Results

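The 10 genes described here were Fos, Fosb, Fosl2, Jun, Junb, Jund, Egr1, Ier2, Zfp36 and Dusp1, taken by an exact match of their names among the 19962 gene targets of a GeoMx spatial profiling experiment on rat skin wounds, in which probes hybridised to a fixed section are released by light from chosen areas and counted. All wounds were full-thickness defects, 8 mm across and held open by a splint, in male SD rats made diabetic with STZ (streptozotocin, a toxin of insulin-producing cells) at 5 weeks of age, and all were collected on day 7. The 3 treatments were Sham, Gel (a hydrogel) and CuNZ@Gel, the nanozyme hydrogel of the study's title; what the Sham wounds received is not given in the sources used here. Each treatment had 2 numbered specimens, each specimen 2 regions whose labels carry "mac", and each region a Segment 1 and a Segment 2, which gave 24 areas. All groups thus share diabetes and a wound, with no unwounded or non-diabetic skin among them. The labels do not say which stain separated the segments, or that the 2 specimens of a treatment came from different animals. P-values thus measure a spread between specimens that may be technical. That spread was largely drawn from other targets.

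Immediate-early genes are transcribed within minutes of a growth factor, cytokine or stress signal, without new protein synthesis, when MAP kinases act on factors already bound to their promoters. FOS proteins (Fos, Fosb, Fosl2) pair with JUN proteins (Jun, Junb, Jund) to form the AP-1 transcription factor, while Egr1 is a zinc finger factor and Ier2 a short-lived nuclear protein. The same signal induces its own brakes: Dusp1 encodes a phosphatase that inactivates p38, JNK and ERK kinases, and Zfp36 encodes tristetraprolin, which binds AU-rich messenger RNAs of cytokines and speeds their decay. In skin wounds these genes are known for early induction in keratinocytes, fibroblasts and immune cells.

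The promoters of 8 of the 10 genes were matched by symbol in a RefSeq table of assembly GRCr8, whose gene starts need not be those used in these wounds. They are shown because induction of these genes runs through short DNA elements near the start. The 250 bases before the start are given 5′ to 3′ for the 3 genes that differed between Gel and Sham, Fosb, Zfp36 and Dusp1, and for Jund, which did not; capitals mark matches, on either strand, to the cyclic AMP response element TGACGTCA, the serum-response CArG box, the EGR element GCGNGGGCG or the TATA element TATAAA.
Fosb (chr1:88089185-88089434, strand minus): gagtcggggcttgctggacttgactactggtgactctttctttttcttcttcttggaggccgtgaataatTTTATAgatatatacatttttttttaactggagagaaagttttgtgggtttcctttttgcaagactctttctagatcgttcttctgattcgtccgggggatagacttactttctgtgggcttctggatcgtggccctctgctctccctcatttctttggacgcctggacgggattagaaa
Zfp36 (chr1:92799109-92799358, strand minus): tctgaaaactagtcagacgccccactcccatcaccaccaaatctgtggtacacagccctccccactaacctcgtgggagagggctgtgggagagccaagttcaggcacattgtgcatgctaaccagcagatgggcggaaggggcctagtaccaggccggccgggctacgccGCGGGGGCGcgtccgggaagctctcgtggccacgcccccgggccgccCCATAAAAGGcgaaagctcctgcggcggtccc
Dusp1 (chr10:17184603-17184852, strand plus): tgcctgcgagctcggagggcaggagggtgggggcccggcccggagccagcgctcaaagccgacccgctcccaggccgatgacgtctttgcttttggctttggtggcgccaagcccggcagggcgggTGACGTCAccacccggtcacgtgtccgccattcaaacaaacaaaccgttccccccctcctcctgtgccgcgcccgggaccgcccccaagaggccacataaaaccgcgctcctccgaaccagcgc
Jund (chr16:18769772-18770021, strand minus): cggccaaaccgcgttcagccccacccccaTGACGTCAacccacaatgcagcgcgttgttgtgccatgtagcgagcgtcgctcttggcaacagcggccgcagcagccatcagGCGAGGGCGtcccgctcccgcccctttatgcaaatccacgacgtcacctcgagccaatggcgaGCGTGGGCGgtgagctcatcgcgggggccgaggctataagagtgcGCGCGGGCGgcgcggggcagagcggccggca

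The elements were not spread evenly over these genes. The full response element TGACGTCA lay 124 bases before the start of Dusp1, 221 before Jund and 66 before Ier2, and 1.59% of 33469 promoter windows of the same length in the table hold it. A CArG box, where serum response factor binds, lay 32 bases before the start of Zfp36 and 105 and 83 bases before that of Egr1, against 1.497% of all windows. The EGR element occurred 3 times in Jund and once each in Zfp36 and Fosl2 (4.29% of windows), and the TATA element once each in Fosb and Junb (12.9%). The AP-1 element TGANTCA, present in 6.34% of windows, had no match in the 8 promoters. These matches describe letters in a window, and the profiling measured no binding.

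Values are signals scaled by the authors so that the upper quartile of targets is about equal in every area, and whole counts could be recovered from them. Total counts per area ran from 86385 to 1476499 (median 340370), and Segment 2 was the shallower one in 11 of the 12 regions. Each file holds no value below that of 1 count, so a target at 1 count is at the lowest value it can take; the median share of such targets was 2.19% in Segment 1 and 28.5% in Segment 2. Background in each area was set as the 99th percentile of 1116 olfactory and vomeronasal receptor targets, which skin is not expected to use, and lay between 11.4 and 21.6. Each area holds a mixture of cells, so fewer cells of a type and less RNA per cell cannot be told apart. The label "mac" was read against macrophage markers: 7 of 14 were above background in at least 4 areas, with Csf1r, Lyz2 and Mrc1 above it in all 24, while Adgre1, Itgam, Cd163, Fcgr1, Mertk, Cd14 and Aif1 never were, and none of 12 keratinocyte markers was above background in 4 areas or more. Fibroblast markers were abundant, with 8 of 10 above background, so the areas are called by their labels only.

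Of the 10 genes, 6 (Fosl2, Junb, Jund, Egr1, Zfp36 and Dusp1) were above background in all 24 areas, and Ier2 in 23. Fos and Jun, the best known AP-1 partners, were above it in none: Fos ranged from 0.42 to 6.13 and Jun from 2.04 to 11.04, at 1 to 10 and 1 to 33 counts, and no fold change is given for either. Fosb was above background in 11 areas, all 8 of Gel, 2 of Sham and 1 of CuNZ@Gel. Each target was read through its own probes, so levels are compared below between areas and never between genes.

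**Figure D1:**
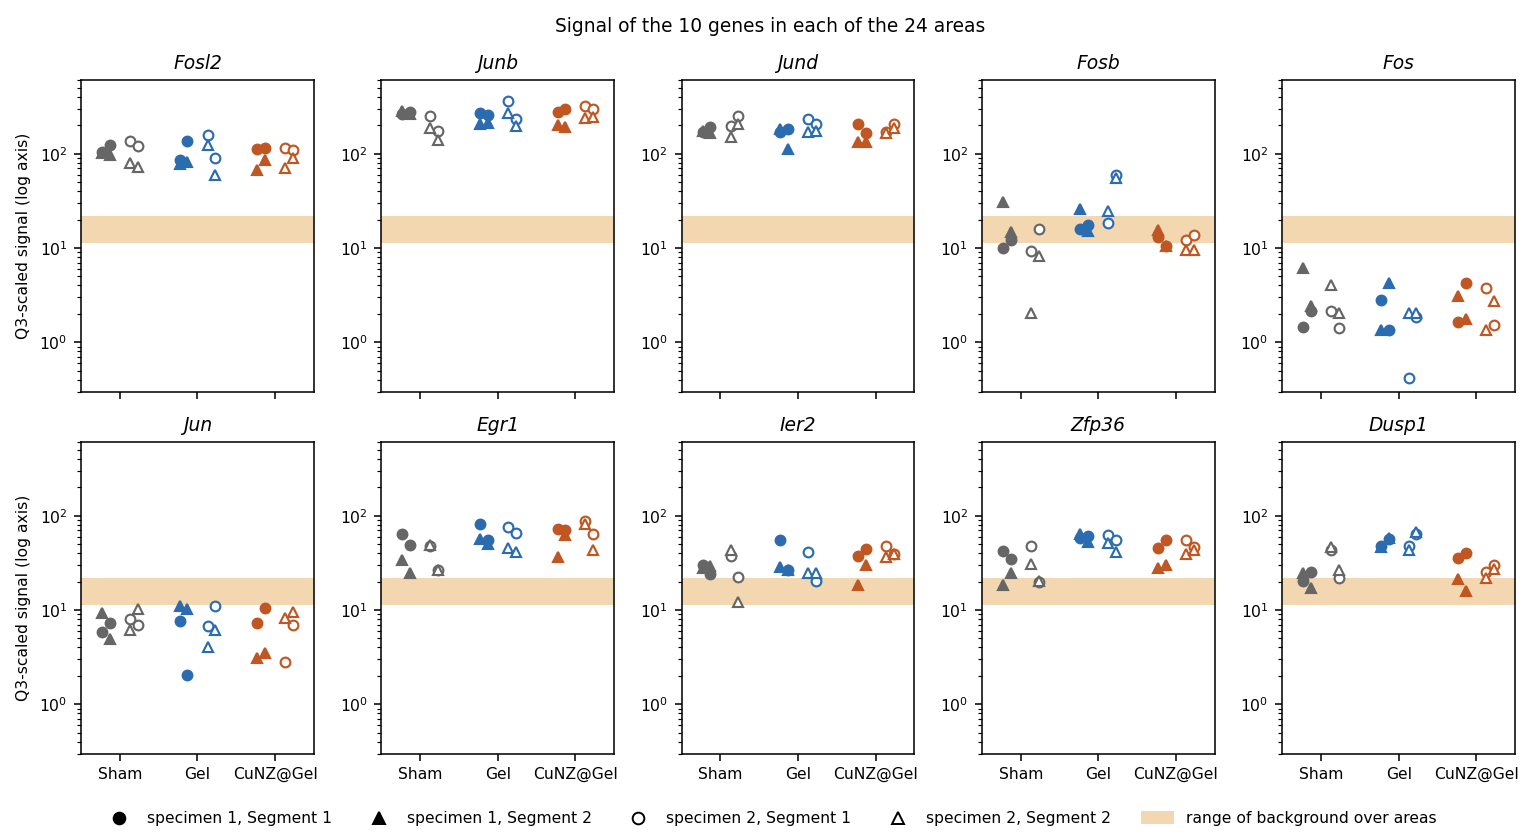
Signal of each gene (log axis, scaled signal) in the 24 areas, by treatment; circles are Segment 1, triangles Segment 2, filled symbols specimen 1, open symbols specimen 2, and the band spans the background of the 24 areas (11.4 to 21.6). Fos and Jun lie below the band throughout, Fosb rises above it mainly in Gel, and the Dusp1 values of Gel lie above all those of CuNZ@Gel.

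Gel against Sham asks what the hydrogel alone changed. Both feedback genes and Fosb were higher in Gel: Dusp1 1.96-fold and Zfp36 1.93-fold, as ratios of signal plus 1 averaged on the log2 scale over specimens. No fold is given for Fosb, which was above background in only 2 of the 8 Sham areas and passed the background filter through Gel. Fosl2, Junb, Jund, Egr1 and Ier2 did not pass the test. The 3 genes are 3 of 10, where 0.618% of the 19728 targets tested were called higher at a limma adjusted p under 0.05 (2.42% in either direction). Fosb is not set against targets above background, because its Gel values made it one. Of the 7 genes above background in at least 12 areas, Dusp1 and Zfp36 were called higher. Of the 5554 targets above background in at least 4 areas, 1.66% were. Over the 7 genes above background in at least 12 areas, which leaves out Fosb, Fos and Jun, the median log2 change was 0.14 against -0.18 over the 4302 such targets. The median of the 5554 targets was -0.15, 0.01 after quantile normalization and -0.29 after scaling to the median. The changes given here are not centred on that median, so they depend on the scaling.

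Zfp36, the messenger RNA decay factor, had specimen means of 30.0 and 29.6 in Sham and of 59.0 and 52.4 in Gel. Its 8 areas ran from 18.4 through a median of 27.6 to 47.4 in Sham, and from 40.9 through 56.8 to 64.0 in Gel. The specimens were clearly apart while the areas overlapped, because Segment 1 of region 1 in both Sham specimens reached into the Gel range. The log2 change was 0.95 (SE 0.20, adjusted p = 5.1e-04), with treatment means of 29.8 ± 0.30 in Sham and 55.7 ± 4.65 in Gel (SD, n = 2 specimens).

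Dusp1, the MAP kinase phosphatase, had specimen means of 21.8 and 34.7 in Sham and of 52.2 and 55.7 in Gel. Its Sham areas ran from 17.2 through a median of 24.9 to 47.0, and its Gel areas from 42.9 through 52.7 to 67.5. The Sham areas that reached the Gel range were both segments of specimen 2, region 1, at 43.0 and 47.0. The log2 change was 0.97 (SE 0.20, adjusted p = 5.7e-04), with means of 28.2 ± 9.11 and 54.0 ± 2.53 (SD, n = 2). Without Sham specimen 1 it was 0.67 with an adjusted p of 0.272 by limma.

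Fosb, the FOS family member best known from chronic stimulation, had specimen means of 16.9 and 8.84 in Sham and of 18.7 and 39.3 in Gel. In Gel its areas read 16.0, 25.9, 17.7 and 15.2 in specimen 1 and 18.6, 24.5, 58.9 and 55.2 in specimen 2. The last pair, both segments of region 2 in Gel specimen 2, stood apart from every other area. In Sham the areas ran from 2.04, which is 1 count, through a median of 11.2 to 30.7, so that Gel and Sham overlapped. The fitted log2 change, in part against values at background, was 1.17 (SE 0.27, adjusted p = 0.00706), with means of 12.9 ± 5.72 in Sham and 29.0 ± 14.6 in Gel (SD, n = 2). Leaving out region 2 of Gel specimen 2 gave 0.83 with an adjusted p of 0.0992, leaving out Gel specimen 2 gave 0.72 (0.171) and leaving out Sham specimen 2 gave 0.68 (0.303), all by limma. The fit used a standard deviation of 0.27 for Fosb, drawn toward that of other targets, where its own was 0.54.

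Egr1, the zinc finger factor, had means of 40.0 ± 3.57 in Sham and 59.0 ± 3.09 in Gel (SD, n = 2). The log2 change of 0.59 (95% interval 0.21 to 0.97) did not pass the test (adjusted p = 0.0841), and it passed under 4 of 26 alternatives. Egr1 areas overlapped, from 24.5 to 63.5 in Sham and from 40.9 to 82.1 in Gel. Junb, an AP-1 partner that often restrains Jun, changed by 0.14 (-0.22 to 0.50), Ier2 by 0.13 (-0.27 to 0.54), Jund by -0.07 (-0.43 to 0.28) and Fosl2 by -0.08 (-0.44 to 0.28). These intervals leave room for modest differences in either direction. No member's 8 Gel areas were all above or all below its 8 Sham areas, where 2.54% of the 5554 targets above background had such a gap.

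The 3 genes kept their direction under all 26 alternatives but not always their call. The Dusp1 call was lost under 8 of the 26, that of Zfp36 under 6 and that of Fosb under 9. All 3 calls were lost with thinned counts, with limma without its trend and robust options, with DESeq2 and in region 1 alone. Those of Dusp1 and Zfp36 were also lost with median scaling and with edgeR, and that of Dusp1 in Segment 2 areas alone. The Dusp1 change was 0.53 in region 1 (adjusted p = 0.733) and 1.42 in region 2, and the Zfp36 change was 0.63 with edgeR and 0.60 with DESeq2. Adjusted p-values over the alternatives ran from 3.56e-06 to 0.733 for Dusp1, from 1.88e-06 to 0.534 for Zfp36 and from 3.90e-06 to 0.589 for Fosb. Other cell types moved with this comparison: the summed signal of the 10 fibroblast markers ran from 10825 through 14505 to 32684 in Sham and from 1966 through 5981 to 11536 in Gel (lowest, median, highest of 8 areas), that of 5 erythroid genes from 601 to 1806 and from 21.8 to 89.9, and that of the 14 macrophage markers from 613 to 1308 and from 746 to 1233. Sums of 10 smooth muscle and pericyte markers ran from 623 to 1150 in Sham and from 155 to 663 in Gel, with 5 of the 10 above background. The only marker of that list called was Mcam, which was higher in Gel (0.63). The median log2 change of the 5 above background was 0.19, so the sum and the single genes went different ways. Sums of 6 Schwann cell and nerve markers ran from 102 to 131 in Sham and from 46.3 to 83.8 in Gel, with no overlap and with 2 of 6 above background. Only Ncam1 was called lower (-2.08), with means of 69.2 in Sham and 17.4 in Gel, so the fall of the sum was mostly that of 1 gene. Sums of 8 adipocyte markers ran from 67.5 through 86.9 to 131 and from 71.9 through 249 to 773. In the 2 areas where Fosb was highest the fibroblast sum was 11536 and 10954, against at most 8356 in the other Gel areas. The adipocyte sum there was 773 and 397, higher than in the other 22 areas, although of its 8 genes only Fabp4 was above background. Of single markers, Fap (-1.32) and Lum (-1.13) of the fibroblast list were called lower in Gel. So were Hba-a1 (-5.15) and Hbb-b2 (-2.52) of the erythroid list. Of 11 T and B cell markers Cd2, above background in 7 areas, was called lower (-1.04). The part of these cells in the changes was not tested.

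**Figure D2:**
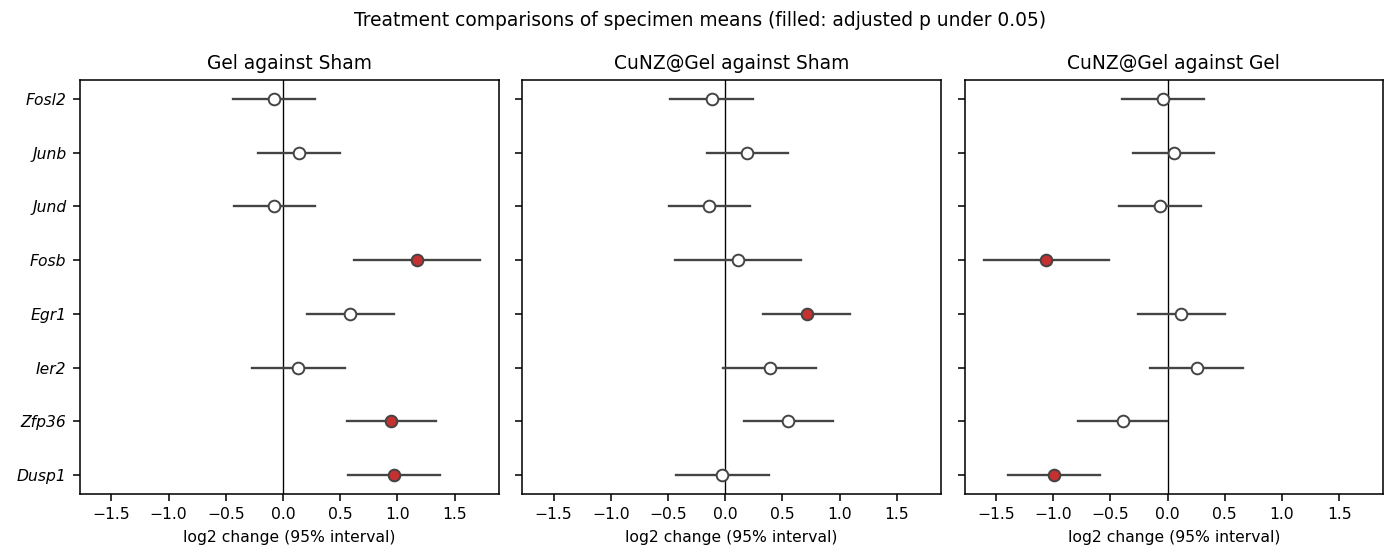
Log2 change (x axis) of the 8 genes above background in at least 4 areas, for the 3 treatment comparisons of specimen means; points are limma estimates, lines 95% intervals, and filled points passed an adjusted p of 0.05. Dusp1, Zfp36 and Fosb are filled for Gel against Sham, Egr1 for CuNZ@Gel against Sham, and Dusp1 and Fosb, now to the left of 0, for CuNZ@Gel against Gel.

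CuNZ@Gel against Sham asks what the full nanozyme hydrogel changed. Egr1 was higher, 1.64-fold, and no other member was called. This is 1 of 10, where 0.324% of all targets tested and 0.864% of those above background were called higher (1.31% of all tested in either direction). Egr1 specimen means were 42.5 and 37.5 in Sham and 60.6 and 69.4 in CuNZ@Gel, and its areas ran from 24.5 through 40.7 to 63.5 and from 36.8 through 67.1 to 87.7. The areas overlapped and the specimens did not. The log2 change was 0.71 (SE 0.19, adjusted p = 0.0315), with means of 40.0 ± 3.57 and 65.0 ± 6.18 (SD, n = 2). It was lost under 13 of 26 alternatives, among them leaving out either specimen of Sham or of CuNZ@Gel (adjusted p from 0.185 to 0.474) and, through the pooled spread, region 2 of Gel specimen 2 (0.200), with all adjusted p-values between 1.82e-04 and 0.833.

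Zfp36 stood between the other treatments in CuNZ@Gel, at 43.0 ± 4.81, and its log2 change from Sham of 0.55 (95% interval 0.16 to 0.94) did not pass (adjusted p = 0.185). Its CuNZ@Gel areas ran from 27.6 through 44.7 to 55.7 and overlapped with those of Sham. Ier2 had means of 28.3 ± 0.66 in Sham and 36.6 ± 5.77 in CuNZ@Gel, with a log2 change of 0.39 (-0.02 to 0.80, adjusted p = 0.50). Dusp1 and Fosb were close to their Sham values, with means of 27.3 ± 1.64 and 11.8 ± 0.74 and changes of -0.02 (-0.43 to 0.38) and 0.11 (-0.44 to 0.66). Those intervals do not show that the 2 genes were equal in the treatments. Junb changed by 0.19, Fosl2 by -0.12 and Jund by -0.14, none passing. No member's areas were fully apart between CuNZ@Gel and Sham, against 2.95% of the 5554 targets. Fibroblast markers summed to between 7420 and 12734 in CuNZ@Gel and erythroid genes to between 22.8 and 206. Smooth muscle and pericyte sums lay between 367 and 903. Schwann cell and nerve sums lay between 54.5 and 84.9, and only Ncam1 of that list was called lower than in Sham (-1.68). Of 14 macrophage markers Mrc1 was called lower than in Sham (-0.81) and Lyz2 higher (0.71). The fibroblast markers Fap (-1.02) and Lum (-0.80) were called lower than in Sham. So were the erythroid genes Hba-a1 (-5.20) and Hbb-b2 (-2.21) and the T and B cell marker Cd2 (-1.09). The part of these cells in the Egr1 result was not tested.

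CuNZ@Gel against Gel asks what the nanozyme added to the hydrogel. Dusp1 was 1.99-fold lower in CuNZ@Gel, Fosb was lower too, and the other members did not pass. No fold is given for Fosb, which was above background in only 1 of the 8 CuNZ@Gel areas. They are 2 of 10, where 0.319% of all targets tested were called lower (0.943% in either direction). Fosb is again not set against targets above background, because its Gel values made it one. Of the 7 genes above background in at least 12 areas, only Dusp1 was called lower. Of the 5554 targets above background in at least 4 areas, 1.08% were. This comparison shares its Gel specimens with the comparison against Sham, so for Dusp1 and Fosb it uses the same high values again.

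Dusp1 read 36.0, 21.5, 40.5 and 15.8 in CuNZ@Gel specimen 1 and 25.5, 21.8, 29.9 and 27.3 in specimen 2. All 8 were below the lowest Gel area, 42.9, a gap that 0.972% of the 5554 targets above background had between these treatments and that no other member had. The log2 change was -0.99 (SE 0.20, adjusted p = 7.05e-04). It was lost without CuNZ@Gel specimen 2 (-0.98, adjusted p = 0.0560) and in 7 more of the 26 alternatives, whose adjusted p-values ran from 4.56e-05 to 0.717.

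Fosb in CuNZ@Gel ran from 9.54 through a median of 11.4 to 15.3, against 15.2 to 58.9 in Gel, so that the ranges met only at their ends. The fitted log2 change, against values mostly at background, was -1.06 (SE 0.27, adjusted p = 0.0378). It was lost under 15 of 26 alternatives. Without region 2 of Gel specimen 2 it was -0.72 (adjusted p = 0.361), without Gel specimen 2 -0.61 (0.520), without either CuNZ@Gel specimen -1.12 (0.308) and -1.0 (0.557), and with the specimen number as a replicate block -1.06 (0.0995); over all alternatives the adjusted p ran from 4.92e-05 to 0.841.

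Other cell markers moved with this comparison as well. Of 14 macrophage markers 1 was called, Mrc1, which was lower in CuNZ@Gel (-1.14), while their sum ran from 746 to 1233 in Gel and from 837 to 1140 in CuNZ@Gel. Of 11 T and B cell markers Cd3e, above background in only 4 areas, was called lower (-1.09). Fibroblast sums had medians of 5981 in Gel and 11253 in CuNZ@Gel, and smooth muscle and pericyte sums medians of 278 and 627, with no gene of either list called. The part of these cells in the Dusp1 and Fosb results was not tested.

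The other genes had no call between the hydrogels. Zfp36 changed by -0.39 (95% interval -0.78 to -0.0037, adjusted p = 0.736), Egr1 by 0.12 (-0.26 to 0.50) and Ier2 by 0.26 (-0.15 to 0.66). Junb, Jund and Fosl2, the other AP-1 subunits above background, changed by 0.05, -0.07 and -0.04.

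The order of the treatment means differed between genes, but no test compared the genes with each other. Zfp36 ran Gel, CuNZ@Gel, Sham, with only Gel and Sham separated by the test; Dusp1 and Fosb ran Gel first, with Sham and CuNZ@Gel not separated; Egr1 ran CuNZ@Gel, Gel, Sham, with only CuNZ@Gel and Sham separated. The AP-1 subunits Junb (229 ± 58.9, 250 ± 19.4 and 259 ± 25.7 in Sham, Gel and CuNZ@Gel), Jund (187 ± 17.9, 179 ± 25.6 and 170 ± 16.5) and Fosl2 (104 ± 3.35, 101 ± 8.18 and 95.7 ± 0.38), and Ier2 (30.9 ± 4.56 in Gel), had no neighbours that the test separated.

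Segment 2 against Segment 1 was compared within specimens. Fosl2, Junb, Egr1 and Zfp36 were lower in Segment 2, and none of the 10 was called higher. They are 4 of 10, where 1.59% of all targets tested and 5.49% of the targets above background were called lower (1.93% of all tested in either direction). The shift was general: the median log2 difference was -0.20 over the 4302 targets above background in at least 12 areas and -0.32 over the 7 members among them, Segment 2 was shallower, and after quantile normalization no member was called and Fosb turned to 0.03. Markers of several cell types were lower in Segment 2 too. Of 10 smooth muscle and pericyte markers 3 were called lower, Mcam (-1.07), Rgs5 (-1.002) and Cspg4 (-0.91), and their sum ran from 255 through 690 to 951 in Segment 1 and from 155 through 492 to 1150 in Segment 2. Of 14 macrophage markers Mrc1 (-0.56), Csf1r (-0.49) and Lyz2 (-0.33) were called lower, with sums from 870 through 1082 to 1308 and from 613 through 875 to 1233. Of 10 fibroblast markers Thy1 (-0.63) and Col1a1 (-0.43) were called lower, with sums from 5030 to 32684 and from 1966 to 20354, and so were Erg (-0.62), 1 of 10 endothelial markers, and Fabp4 (-0.80), 1 of 8 adipocyte markers. The part of these cells in the segment result was not tested.

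Fosl2, a FOS family member with a slower and longer course than Fos, was lower in Segment 2 throughout. Its 12 areas ran from 85.8 through 115 to 156 in Segment 1 and from 59.3 through 80.2 to 123 in Segment 2. Segment 2 was lower in all 12 regions and all 6 specimens; 15.6% of the 5554 targets were lower in 6 of 6 specimens. The log2 difference was -0.49 (SE 0.10, adjusted p = 0.00129). Fosl2 was also the member whose log2 signal followed depth most, with a Pearson correlation with log2 total counts of 0.67 over the 24 areas, against 0.26 to 0.45 for the other 6 members always or nearly always above background. The part of depth in the segment difference was not tested by that value, and thinning every area to 86385 counts gave -0.50 with the call lost (adjusted p = 0.159; 9.63e-05 to 0.269 over 22 alternatives).

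Egr1 was lower in Segment 2 in 11 of 12 regions and 5 of 6 specimens, with medians of 65.3 and 44.3 and a log2 difference of -0.47 (SE 0.12, adjusted p = 0.0170). Sham specimen 2 was the exception, with a difference of 0.02. Junb was lower in 11 of 12 regions and 5 of 6 specimens, with medians of 273 and 211 and a difference of -0.32 (SE 0.08, adjusted p = 0.0276). Zfp36 was lower in 10 of 12 regions and 6 of 6 specimens, with medians of 51.3 and 35.1 and a difference of -0.43 (SE 0.13, adjusted p = 0.0499), just inside the threshold. Jund, though lower in all 6 specimens, did not pass (-0.27, adjusted p = 0.0967). Dusp1 (-0.20), Ier2 (-0.31) and Fosb (-0.06) did not pass either, and Fosb was lower in Segment 2 in only 2 of 6 specimens. The calls of Junb, Egr1 and Zfp36 were less steady than that of Fosl2: Junb was lost without any specimen other than Sham specimen 1 (adjusted p from 0.0740 to 0.109), Egr1 without Sham specimen 1 (0.0824) or Gel specimen 2 (0.105), and Zfp36 without any 1 of the 6 (0.0519 to 0.174). Over 22 alternatives the adjusted p ran from 0.00268 to 0.425 for Junb, from 0.00148 to 0.308 for Egr1 and from 0.00605 to 0.650 for Zfp36.

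**Figure D3:**
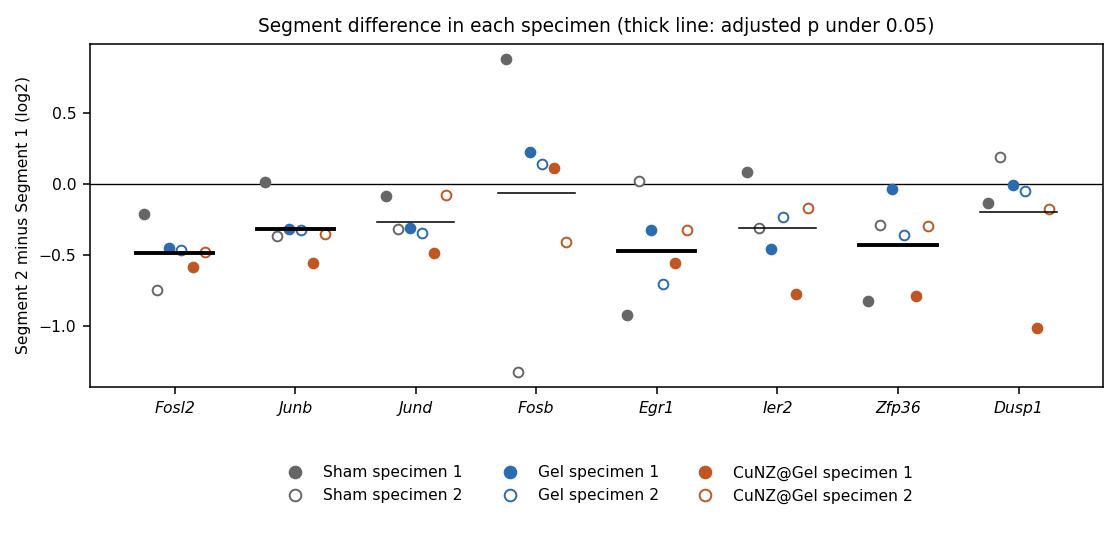
Segment 2 minus Segment 1 on the log2 scale (y axis) for the 8 genes above background in at least 4 areas; each point is a specimen, coloured by treatment, and the line is the fitted difference, thick where the adjusted p was under 0.05. All 6 points lie below 0 for Fosl2, Jund and Zfp36, and the points of Fosb run from -1.32 to 0.88.

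The segment difference did not detectably depend on treatment. The limma interaction test called 0 of the 10 genes (adjusted p from 0.897 to 0.997), where 0.0507% of targets were called and 1114 of 19728 had an unadjusted p under 0.05; none of the 10 had one, and edgeR and DESeq2 also called 0 members. Dusp1 had the lowest unadjusted p of the 10, 0.103, with a segment difference of -0.59 in CuNZ@Gel, against -0.03 in Gel and 0.03 in Sham. With 2 specimens a treatment only large differences could be seen.

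Spread within a treatment set the limits of these comparisons. Between the 2 regions of a specimen, within a segment, the median absolute log2 difference was 0.10 for Junb, 0.16 for Jund, 0.20 for Fosl2, 0.27 for Zfp36, 0.30 for Ier2, 0.36 for Dusp1, 0.44 for Egr1 and 0.60 for Fosb, against a median of 0.32 over the 5554 targets. Junb, Jund and Fosl2 thus had the smaller region differences of these 8, and Egr1 and Fosb the larger. Junb, Jund and Fosl2 also had the most counts, with medians of 313.5, 179 and 106.5 an area, against 71.5 for Egr1 and 17 for Fosb. The part of counting noise in these differences was not tested. The widest region gaps were 1.73 for Ier2 in Sham specimen 2, Segment 2, and 1.61 for Fosb in Gel specimen 2, Segment 1. Between specimens, Fosb differed by -0.98 in Sham and 0.90 in Gel (specimen 2 minus 1), Dusp1 by 0.60 in Sham and Junb by -0.56 in Sham, while no Fosl2 difference exceeded 0.11.

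Across the 24 areas, which share specimens and depth, several of the genes correlated with more than 1 other. The log2 signals of Egr1 and Zfp36 correlated at Pearson's r = 0.76, Egr1 and Ier2 at 0.65, Fosl2 and Junb at 0.65, Junb and Ier2 at 0.65, and Zfp36 and Dusp1 at 0.63. Junb was also at 0.55 with Egr1 and 0.52 with Zfp36. With specimen means removed, Fosl2 and Junb reached 0.83, Junb and Ier2 0.74, Egr1 and Zfp36 0.72 and Junb and Zfp36 0.68. Removing specimen means left the difference between segments in, and its part in these correlations was not tested. Jund stood aside from Egr1, Ier2, Zfp36 and Dusp1, with values from -0.06 to 0.08 (0.04 to 0.20 with specimen means removed). It was at 0.47 with Fosl2 and 0.17 with Junb, and at 0.50 and 0.36 with specimen means removed. Dusp1 was at 0.03 with Fosl2 and 0.07 with Junb, and at 0.13 and 0.40 with specimen means removed. These values are descriptions of 24 areas.

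**Figure D4:**
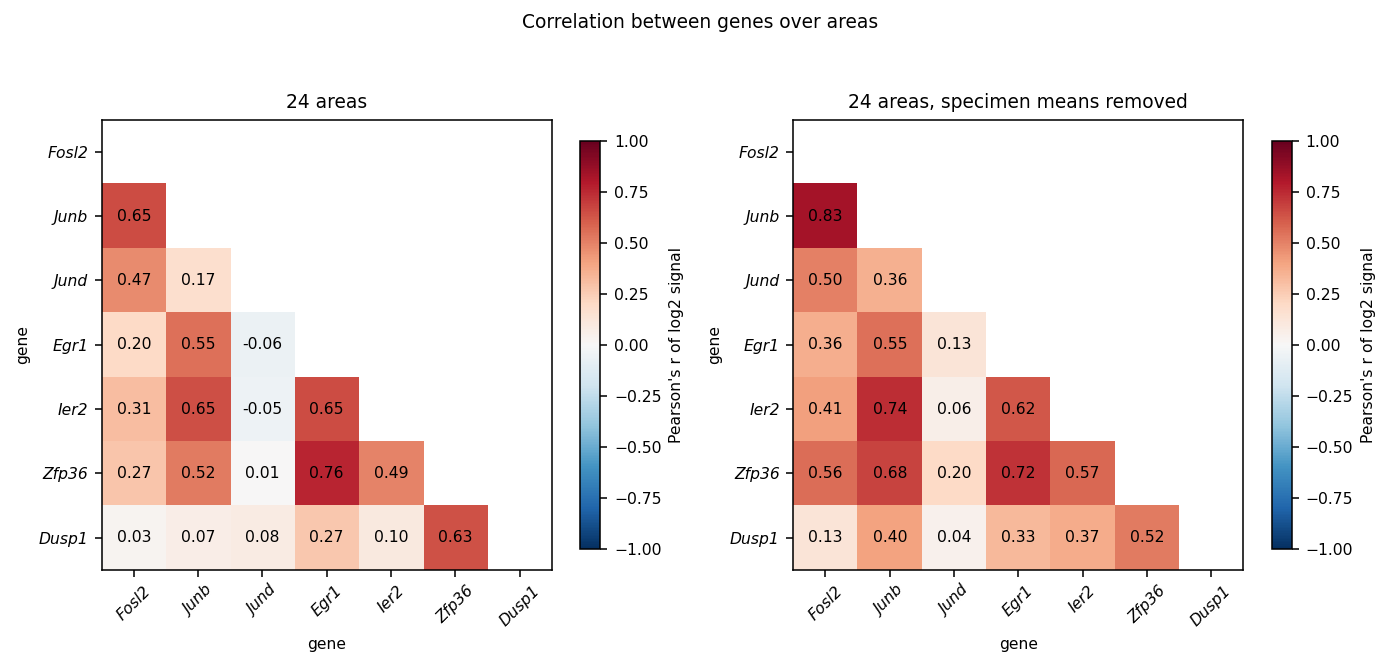
Pearson's r between the log2 signals of 7 genes over 24 areas, before (left) and after (right) removing each specimen's mean; colour runs from -1 to 1 and each cell prints its value. The Egr1 and Zfp36 cell (0.76) is the highest at left, the Fosl2 and Junb cell (0.83) the highest at right, and the Jund cells with Egr1, Ier2, Zfp36 and Dusp1 stay near 0 at left.

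By likeness to the mean of those 7 genes, among 4295 other targets above background in at least 12 areas, the closest over the 24 areas were Ccdc85b (r = 0.88), Sema6d, a semaphorin (0.84), Dysf, the membrane repair protein dysferlin (0.83), Adamts9, a secreted protease (0.82), and Ogfrl1 (0.82). Erfl followed at 0.80, Neurl3 at 0.78 and Tns2, a tensin, at 0.77. The mean of the 7 genes itself correlated with log2 depth at 0.54.

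The other genes of the response are given by the lists they belong to, and each count stands beside the share of all targets called, 2.42%, 1.31%, 0.943% and 1.93% in either direction for Gel against Sham, CuNZ@Gel against Sham, CuNZ@Gel against Gel and the segments. Of 17 other AP-1 family and partner genes, Gel against Sham had 1 higher, Fosl1 (a FOS family member, 14.7 ± 2.24 against 31.6 ± 6.15, log2 change 0.98, above background in 15 areas), and 1 lower, Jdp2, a repressor of AP-1 (-0.75). In CuNZ@Gel against Sham, Jdp2 was lower (-1.10) and none was higher. Between CuNZ@Gel and Gel none of the 17 was called, and between segments Atf7 was lower (-0.50).

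Of 29 other immediate-early genes measured, 2 were higher in Gel than in Sham, where 0.618% of all targets were, and none lower. They were Arc, a synaptic immediate-early gene also known in migrating immune cells (4.46 ± 0.33 against 17.5 ± 3.24, log2 change 1.74, above background in only 6 areas), and Myc, the growth regulator (34.4 ± 5.07 against 57.5 ± 12.002, 0.69). The Sham mean of Arc lay below the background range of 11.4 to 21.6, so its change is against values at background. In CuNZ@Gel against Sham, Btg2, an antiproliferative gene, was higher (0.79), and Klf4 (-1.13, above background in 17 areas) and Id1 (-0.70) were lower. In CuNZ@Gel against Gel, Id1 was lower (-0.86) and Ccn1 higher (1.09), the latter above background in only 1 area. In Segment 2, 7 of the 29 were lower, where 1.59% of all targets and 5.49% of those above background were, among them Rhob (-0.74), Id1 (-0.65), Klf10 (-0.57) and Klf6 (-0.51), and none was higher.

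Of 24 other feedback inhibitors, which include further dual-specificity phosphatases, Sprouty and Spred genes and the Zfp36 paralogs, none was called in Gel against Sham. Nfkbia, the NF-kappaB inhibitor, was higher in CuNZ@Gel than in Sham (18.8 ± 1.21 against 32.9 ± 9.46, 0.75), none was called in CuNZ@Gel against Gel, and Zfp36l2 was lower in Segment 2 (-0.33). Of 26 upstream kinases and factors none was called in any of these 4 comparisons. Of 17 transcripts known to be destabilised by tristetraprolin none was called either, and only 4 of them were above background in at least 4 areas. Of 19 known AP-1 targets tested, Vim was lower in Gel than in Sham (-0.67), and Ccnd1 (-0.65) and Tgfb1 (-0.36) were lower in Segment 2.

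Dusp1 and Zfp36 are also known to respond to glucocorticoids, and 12 other genes of that kind were listed. Zbtb16, a zinc finger factor strongly induced by glucocorticoids, was higher in Gel than in Sham (8.51 ± 2.13 against 41.3 ± 9.67, log2 change 2.15) and lower in CuNZ@Gel than in Gel (15.2 ± 1.81, -1.36). It was above background in only 12 areas. Its Sham mean lay below the background range of 11.4 to 21.6 and its CuNZ@Gel mean within it, so both changes are against values at background. Glul was lower in both hydrogels than in Sham (-0.61 for Gel, -0.72 for CuNZ@Gel), and Ddit4 (0.99) and Nfkbia (0.75) were higher in CuNZ@Gel than in Sham. The remaining listed genes were not called. Heat-shock genes, another stress-induced group, had 1 of 15 lower in Gel than in Sham, Dnajb1 (-0.78), 1 lower in Segment 2, Hspb1 (-0.54), and none in the other comparisons.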

How the data were processed

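GeoMx libraries from 24 areas were analysed. Per the labels' protocols, fixed sections were hybridised with GeoMx RNA probes and areas positive for a fluorescent stain were collected. No source used here names the software or the genome build. The deposited values are a signal per target, and the file values were whole multiples of 1 count for 99.98% to 99.99% of targets within a tolerance of 0.01, with upper quartiles of 12.2 to 12.3. Because the values are scaled signals and not counts, log2(signal + 1) was averaged per specimen and fitted with limma 3.58.1 (trend and robust eBayes) over 19728 targets, those exceeding the negative probe in 4 areas or more, with Benjamini-Hochberg adjustment and a threshold of 0.05. Treatments were compared over 6 specimens with 1 shared spread, and segments within specimens, with the specimen as a block. In the treatment fit each standard deviation was drawn toward that of other targets. It was 0.20 for Dusp1, whose own was 0.25, and 0.20 for Zfp36, whose own was 0.13. For Egr1 it was 0.19, where its own was 0.11. Other settings included edgeR 4.0.16 and DESeq2 1.42.0 on recovered counts; the fits were tested on simulated data. Same-numbered specimens do not pair. Motifs were searched with Python 3.11.15. Intervals are at 95% and cover the fitted spread only.

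The 10 genes and all gene lists were chosen with earlier results of these data known. Of each list, every gene past the threshold was named, or the 4 with the smallest p where more than 4 passed, except for a result that is not reported here, and the 10 genes were named whatever their values.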

Additional observations from a re-analysis of the deposited data

Results flagged for a closer look

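Jund was low in 1 area. In Segment 2 of Gel specimen 1, region 2, its signal was 111.223, from 263 counts, while the other 7 Gel areas lay between 169 and 235. On log2(signal + 1), the gap to the nearest area was 0.559 of the range of the 8 Gel areas. That is above Dixon's 95% critical value for 8 values. On that scale this was the only such area among 30 sets of 8 areas (10 genes in 3 treatments), where chance gives about 1 in 20. On the signals before the log the gap was a smaller share of the range, below the critical value. The flag thus depends on the log2 scale. No cause was tested.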

How the results depend on the processing

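Each treatment comparison was recomputed under 26 alternatives, the segment comparison under 22. Alternatives that left out region 2 of Gel specimen 2, or each specimen for the interaction, were chosen after seeing the data. The main fits called 3 genes in Gel against Sham, 1 in CuNZ@Gel against Sham, 2 in CuNZ@Gel against Gel and 4 between segments. Thinned counts, limma without trend and robust, and region 1 only each called 0 in all 4. DESeq2 called 0, 0, 0 and 2, edgeR 1, 0, 1 and 2, quantile normalization 5, 3, 2 and 0, and median scaling 1, 0, 1 and 5. For CuNZ@Gel against Sham, subtracting the negative probe, Segment 2 areas only, and leaving out region 2 of Gel specimen 2 gave 0. For CuNZ@Gel against Gel, a pseudocount of 0.5, only targets above background, means of linear values, the replicate block, all 24 areas with the specimen as a random block, Segment 2 areas only and leaving out region 2 of Gel specimen 2 gave 1, and Segment 1 areas only gave 0. Region 2 only gave 1 between segments. Leaving out 1 specimen at a time gave 2 to 3 genes in Gel against Sham, 0 to 1 in CuNZ@Gel against Sham, 0 to 2 in CuNZ@Gel against Gel, 1 to 2 between segments and 0 for the interaction. The cause of these losses was not tested.

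Some changes that passed no test turned sign. In Gel against Sham, Fosl2 (-0.078) gave 0.24 after quantile normalization, 0.038 in region 1 and 0.15 without region 2 of Gel specimen 2. Junb (0.14) gave -0.013 after median scaling and -0.14 to 0.42 leaving out 1 specimen. Jund (-0.074) gave 0.25 after quantile normalization, 0.13 in region 1 and -0.23 to 0.080 leaving out 1 specimen. Ier2 (0.13) gave -0.016 after median scaling and -0.0041 to 0.27 leaving out 1 specimen. In CuNZ@Gel against Sham, Fosl2 (-0.12) gave 0.15 after quantile normalization. Junb (0.19) gave -0.085 to 0.47 leaving out 1 specimen. Jund (-0.14) gave 0.14 after quantile normalization. Fosb (0.11) gave -0.054 with means of linear values, -0.070 with thinned counts, -0.068 with edgeR, -0.10 with DESeq2, -0.16 in region 2 and -0.38 to 0.60 leaving out 1 specimen. Ier2 (0.39) gave -0.036 in region 1. Dusp1 (-0.024) gave 0.11 after quantile normalization, 0.056 with thinned counts, 0.025 with edgeR, 0.011 with DESeq2, 0.29 in Segment 1 areas, 0.25 in region 2 and -0.32 to 0.27 leaving out 1 specimen. In CuNZ@Gel against Gel, Fosl2 (-0.040) gave 0.038 after median scaling, 0.019 with thinned counts, 0.18 in region 2 and -0.10 to 0.017 leaving out 1 specimen. Junb (0.053) gave -0.085 in region 1, -0.014 in Segment 2 areas, -0.084 without region 2 of Gel specimen 2 and -0.056 to 0.16 leaving out 1 specimen. Jund (-0.065) gave 0.014 after median scaling, 0.013 with edgeR, 0.022 with DESeq2, 0.035 in region 2 and -0.22 to 0.088 leaving out 1 specimen. Ier2 (0.26) gave -0.10 in region 1. In Segment 2 against Segment 1, Fosb (-0.061) gave 0.029 after quantile normalization, 0.11 in region 1 and -0.25 to 0.19 leaving out 1 specimen.

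Counts of all targets called also moved. They were 478, 259, 186 and 381 in the 4 comparisons, and 198, 79, 93 and 62 with thinned counts, 176, 44, 75 and 0 with limma without trend and robust (2132 targets had an unadjusted p under 0.05 in the first), and 152, 59, 55 and 142 with DESeq2. Quantile normalization gave 398, 160, 259 and 131, and median scaling 406, 146, 160 and 1326. The split of higher and lower calls in Gel against Sham was 122 and 356, and 192 and 206 after quantile normalization; in CuNZ@Gel against Sham it was 64 and 195, and 80 and 80; between segments it was 67 and 314, 60 and 1266 after median scaling, and 7 and 462 after subtracting the negative probe. Same-numbered specimens did not deviate together (correlations of 0.0037, -0.03 and -0.03 over 5554 targets), and the replicate block called 500 targets in Gel against Sham and 257 in CuNZ@Gel against Sham and changed no other treatment call of the 10 genes than that of Fosb in CuNZ@Gel against Gel. Leaving out 1 specimen gave 271 to 752, 72 to 458, 95 to 293 and 198 to 404 targets in the 4 comparisons and 0 to 36 for the interaction. Depth limits the low values most: Fosb rested on 1 to 96 counts an area and Dusp1 on 7 to 179.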
